A study of Mus musculus with 28 samples.

Results

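The effect of losing Nrf2 while RA839 was present was read from 8 of the 28 arrays of the series, which were chosen by their titles. The tested arrays were 4 of Nrf2-/- macrophages with RA839 (KO_RA839), and they were set against 4 of Nrf2+/+ macrophages with RA839 (WT_RA839). The same genotypes with DMSO alone (KO_DMSO and WT_DMSO, 4 arrays each) were used beside them, and 12 arrays of Nrf2+/+ macrophages given siKeap1-1, siKeap1-2 or siControl (4 arrays each) supplied values from other cultures. All groups were macrophages grown out of marrow of mice of the C57BL/6 J strain, 12 weeks old. In the 4 compound groups DMSO was held at 0.2% and RNA was taken after 4 h. GEO's labels give neither the dose of RA839 on these arrays, nor the nature of the Nrf2-/- allele, nor the number of mice behind a group. The series' design text calls the 4 arrays of a group biological replicates, and no label says that they came from separate mice. The p-values therefore measure the spread between arrays, pooled over the 4 compound groups. The labels do not say whether the Nrf2-/- and Nrf2+/+ mice were littermates.

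Nrf2, encoded by Nfe2l2, is a transcription factor that Keap1 marks for degradation in unstressed cells. RA839 is a small molecule that binds Keap1, and Nrf2 that escapes Keap1 pairs with small Maf proteins and binds antioxidant response elements near genes of glutathione, thioredoxin, NADPH and haem metabolism. In macrophages Nrf2 is also known for restraining inflammatory cytokine genes.

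Values are log2 RMA values, in which 1 unit is 2-fold. Differences are KO_RA839 minus WT_RA839 on that scale, given ± standard error, with p-values from limma adjusted over 18193 genes and a threshold of 0.05. Nfe2l2 itself, on its brighter probe set, read 3.18, 3.25, 3.38 and 3.26 on KO_RA839 arrays 1 to 4 and 12.30, 11.85, 12.58 and 12.48 on WT_RA839 arrays 1 to 4. The groups were thus separated on all 8 arrays, and the difference was -9.03 ± 0.14 (adjusted p = 3.03e-16). The KO values lay near the floor of the scale, so the size of the gap is a lower estimate. The other Nfe2l2 probe set averaged 8.15 ± 0.44 in KO_RA839 and 8.97 ± 0.45 in WT_RA839 (SD, n = 4 each). The labels leave out which part of the gene the allele lacks, and this probe set therefore checks nothing about the genotype.

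The arrays of each group did not scatter evenly. The leading component of the spread within KO_RA839 took 73.7% of the variance and put arrays 1 and 2 (scores 0.175 and 0.189) apart from arrays 3 and 4 (-0.195 and -0.169), and KO_DMSO divided by the same numbers (74.4%). In WT_RA839 the leading component took 66.9% and set array 2 (score -0.347) apart from the other 3 (0.089 to 0.131). The 3′ signal of the Gapdh control exceeded its 5′ signal by 0.769 to 0.879 on the KO_RA839 arrays, against 3.739 on array 2 of WT_RA839 and 0.876 to 1.001 on its remaining arrays. For the Actb control the excess was 1.320 to 1.453 in KO_RA839, against 3.100 on number 2 of WT_RA839 and 1.703 to 2.043 on its other arrays, so this measure also moved with genotype. The excess overlapped between the genotypes for the transferrin receptor control (3.367 to 4.341 in KO_RA839, 3.493 to 4.353 in WT_RA839) and separated them for the pyruvate carboxylase control (0.430 to 0.830 in KO_RA839, 2.518 to 2.745 in WT_RA839). The pyruvate carboxylase excess also differed among Nrf2+/+ arrays. It was 0.707 to 1.236 with siControl, 2.322 to 2.939 with siKeap1-1 and 2.460 to 2.678 with siKeap1-2. The gene itself, Pcx, was lower in KO, as given below, so its level and RNA quality cannot be told apart in this control. The part of the 3′ excess in the results was not tested. The labels name no batch that would correspond to these numbers. Results that rest on these arrays are given below with and without them. The median SD over genes was 0.14 in KO_RA839 and 0.20 in WT_RA839.

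With RA839 present, 5538 of 18193 genes (30.4%) differed between the genotypes. Of these, 2655 were higher in KO (14.6% of all genes) and 2883 were lower (15.8%). Large differences leaned downward in KO: 227 genes were at least 2-fold higher and 543 at least 2-fold lower, and past 4-fold the counts were 27 and 115. The median over all genes was -0.01, and 5623 genes (30.9%) had no overlap between the 4 KO_RA839 and the 4 WT_RA839 arrays. The excess of lower calls over all sizes depended on the scaling, since 53.2% of calls were higher after quantile normalization, against 47.9% as deposited. Without KO arrays 1 and 2 of both treatments there were 3989 calls, and without KO arrays 3 and 4 there were 3908. Counts within a gene list are therefore read against this background.

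**Figure D1:**
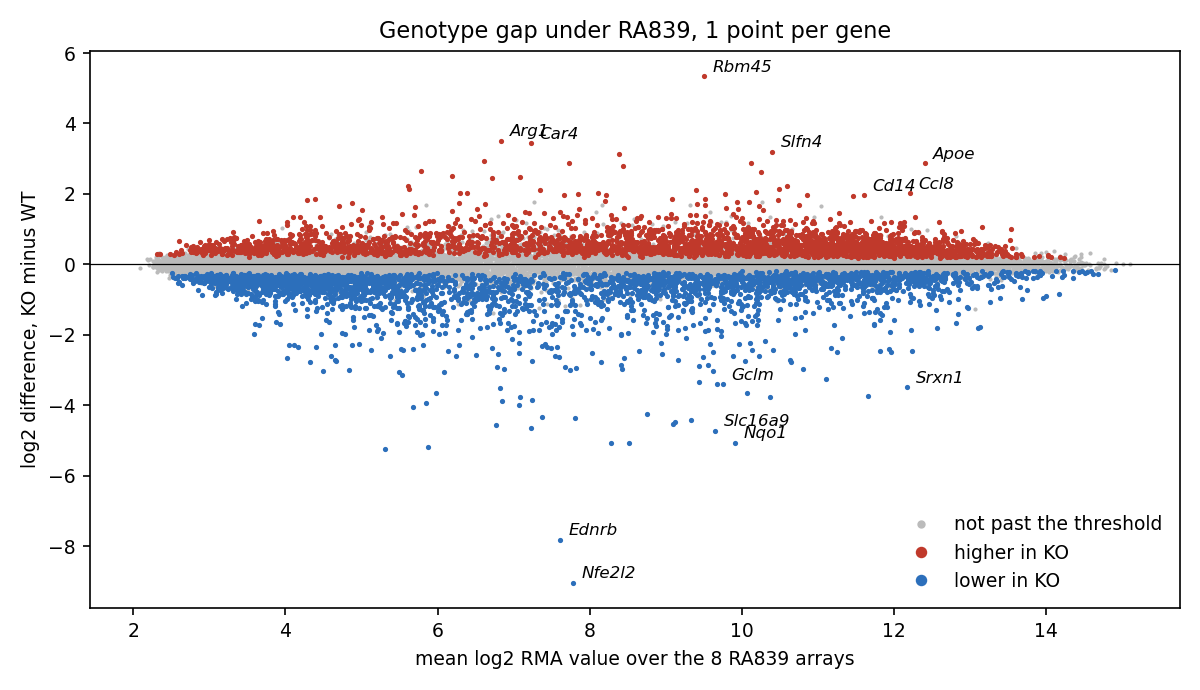
Log2 difference between KO and WT macrophages with RA839 (y axis, KO minus WT) against the mean log2 RMA value over the 8 arrays (x axis), with 1 point per gene for 18193 genes. Red points (2655) and blue points (2883) passed the threshold of 0.05 on the adjusted p, and grey points did not. The points reach farther below zero than above it, with Nfe2l2 at -9.03 and Ednrb at -7.81 at the bottom and Rbm45 at 5.35 at the top.

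Genes known as targets of Nrf2 were lower in KO almost throughout. Of 36 measured members of the list of core targets, 34 fell and 0 rose, with a median of -1.73, against 15.8% lower and a median of -0.01 over all genes. The exceptions were Blvra, a biliverdin reductase, at 0.22 (adjusted p = 0.161) and the ephrin receptor Epha2 at -0.27 (adjusted p = 0.103). The lists below share members with this one. The quinone reductase Nqo1 read 7.56, 7.48, 7.13 and 7.34 on the KO_RA839 arrays and 12.43, 12.53, 12.23 and 12.57 on the WT_RA839 arrays. All 4 KO arrays were thus far below every WT array, and Nqo1 was 33.4-fold lower in KO (-5.06 ± 0.12, adjusted p = 1.22e-13). Without KO arrays 1 and 2 the list held 30 falls and 0 rises, without KO arrays 3 and 4 it held 31 and 0, and without WT_RA839 array 2 it held 34 and 0.

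Glutathione synthesis showed wide gaps in its rate-setting genes. Of 12 measured genes of glutathione synthesis and cystine uptake, 7 fell and 0 rose (median -0.82). Gclc, which catalyses the first step, read 8.80, 8.71, 9.04 and 9.13 in KO_RA839 and 11.22, 11.10, 11.55 and 11.51 in WT_RA839. Gclm, the modifier subunit of the same ligase, read 7.69, 7.70, 8.44 and 8.37 in KO_RA839 and 11.47, 11.31, 11.41 and 11.59 in WT_RA839. Every KO array lay below every WT array for both subunits, and within KO the Gclm values of arrays 1 and 2 were below those of arrays 3 and 4. The differences were -2.43 ± 0.14 for Gclc (adjusted p = 7.21e-09) and -3.40 ± 0.20 for Gclm (adjusted p = 1.24e-08). Gss, which adds glycine in the next step, averaged 8.0 ± 0.17 in KO_RA839 and 10.88 ± 0.27 in WT_RA839 (SD, n = 4 each), a difference of -2.88 (adjusted p = 5.79e-09). Slc7a11, the light chain of the cystine importer, read 7.35, 8.06, 8.04 and 8.42 on the KO_RA839 arrays and 11.40, 11.12, 11.34 and 11.64 on the WT_RA839 arrays. Its groups did not overlap, and it was 10.6-fold lower in KO (adjusted p = 4.69e-08). Ggt5, a gamma-glutamyl transferase that cleaves outside the cell, fell by 2.47 and the glutathione reductase Gsr fell by 0.63 (adjusted p = 2.71e-06 and 0.00109). Slc3a2, the heavy chain that pairs with Slc7a11 and with other transporters, was at -0.31 (adjusted p = 0.179).

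**Figure D2:**
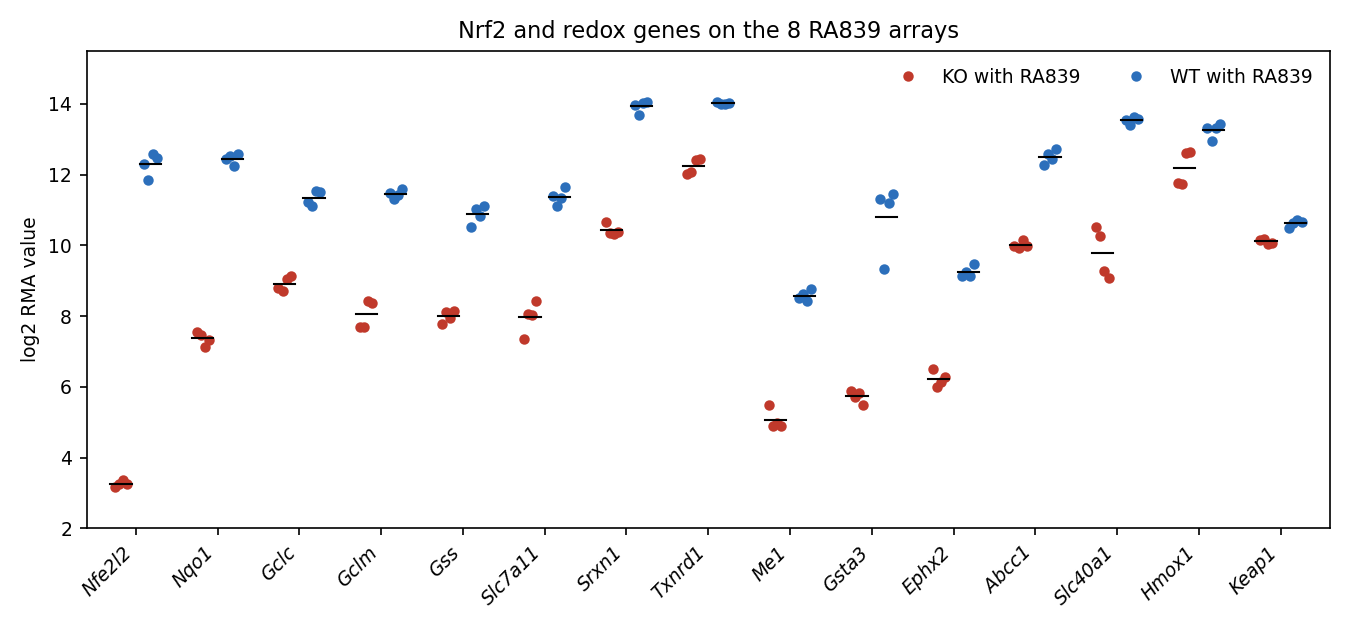
Log2 RMA values (y axis) of Nfe2l2, Keap1 and 13 genes of redox and iron metabolism (x axis) on the 4 KO (red, left) and 4 WT (blue, right) arrays with RA839, with 1 point per array in order of array number and a black line at the group mean. KO and WT arrays do not overlap for any of the 15 genes; the separation is wide for Nqo1 (-5.06) and narrow for Keap1 (-0.51), and Gsta3 of WT array 2 lies below the other WT arrays.

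In the thioredoxin arm a few genes had wide gaps and most had none past the threshold. Of 14 measured genes 5 fell and 0 rose, with a median of -0.12. Srxn1, the sulfiredoxin that restores overoxidized peroxiredoxins, read 10.67, 10.35, 10.32 and 10.39 in KO_RA839 and 13.97, 13.68, 14.01 and 14.04 in WT_RA839. It had high signal in both genotypes and was 11.2-fold lower in KO (adjusted p = 4.84e-12). Txnrd1, the cytosolic thioredoxin reductase, read 12.01, 12.07, 12.40 and 12.45 in KO_RA839 and 14.06, 14.0, 13.99 and 14.01 in WT_RA839. The 4 WT values lay within a narrow range, whereas KO arrays 1 and 2 lay below KO arrays 3 and 4 (-1.78 ± 0.11, adjusted p = 1.69e-08). Dimmer probe sets of Txnrd1 were at -3.75 and -3.27. Smaller falls were those of Txnrd3 (-0.97; -0.42 and -0.49, not past the threshold, on its other probe sets), the mitochondrial peroxiredoxin Prdx3 (-0.43) and thioredoxin itself, Txn1 (-0.33), with adjusted p up to 0.00133. Among 10 genes of catalase, superoxide dismutases and glutathione peroxidases 3 fell and 0 rose. Catalase, Cat, fell by 1.06 ± 0.10 (adjusted p = 1.48e-06), and its dimmer probe set was at -2.75. Gpx4, which reduces lipid peroxides in membranes, fell by 0.43 (adjusted p = 0.00258), with another probe set of Gpx4 at -0.24 and not past the threshold.

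Falls outnumbered rises among the conjugating and reducing enzymes. Of 22 measured glutathione S-transferases 12 fell and 3 rose (median -0.45). The transferase Gsta3 read 5.89, 5.72, 5.83 and 5.49 on KO_RA839 arrays and 11.30, 9.32, 11.20 and 11.44 on WT_RA839 arrays. WT array 2 was lower than the other WT arrays and still above all KO arrays, and the difference was -5.08 ± 0.33 (adjusted p = 3.09e-08). Falls of similar size to each other were seen for Gsta2 (-2.45), Gsta4 (-2.40) and Gstm2 (-2.39). The alpha and mu class members are close relatives, so probe sets can share signal between them. Members of other classes went up, namely Gstt1 (0.67, adjusted p = 0.00266), Gstt3 (0.72, adjusted p = 0.0229) and the kappa class Gstk1 (0.85, adjusted p = 0.00139). Of 23 genes of quinone, carbonyl and epoxide detoxification 10 fell and 1 rose, Ptgr2 (0.45). The soluble epoxide hydrolase Ephx2 averaged 6.23 ± 0.23 in KO_RA839 and 9.25 ± 0.16 in WT_RA839 (SD, n = 4 each), a difference of -3.01. Ptgr1, a reductase of leukotrienes and prostaglandins, fell by 2.45 and the aldo-keto reductase Akr1b8 fell by 2.19 (adjusted p = 4.47e-11 and 1.63e-07).

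Ferroportin and other genes of iron and haem handling were lower in KO. Of 22 measured genes of haem breakdown and iron handling 10 fell and 0 rose (median -0.14). Slc40a1, encoding ferroportin, the iron exporter, read 10.53, 10.27, 9.29 and 9.08 in KO_RA839 and 13.55, 13.39, 13.64 and 13.56 in WT_RA839. All KO arrays were below all WT arrays, and KO arrays 3 and 4 were the lowest (-3.74 ± 0.36, adjusted p = 2.5e-06). Slc40a1 was at -4.35 without KO arrays 1 and 2 and at -3.13 without KO arrays 3 and 4, and its dimmer probe set was at -5.39 on all arrays. Haem oxygenase, Hmox1, read 11.75, 11.74, 12.62 and 12.65 in KO_RA839 and 13.33, 12.96, 13.33 and 13.44 in WT_RA839. Here the KO arrays divided the other way, with arrays 1 and 2 the lowest, and the gap was smaller (-1.07 ± 0.21, adjusted p = 0.00126). Biliverdin reductase Blvrb fell by 2.48, the phagosomal metal transporter Slc11a1 fell by 2.41, and the porphyrin transporter Abcb6 fell by 1.71, with adjusted p up to 9.37e-07. Fth1, the ferritin heavy chain, fell by 0.19 (adjusted p = 0.0319).

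Some genes of NADPH supply and of export pumps were lower in KO, and others did not pass. Of 15 genes of NADPH supply 7 fell and 1 rose (median -0.32). The malic enzyme Me1 read 5.48, 4.90, 4.99 and 4.91 in KO_RA839 and 8.51, 8.62, 8.42 and 8.78 in WT_RA839. It was 11.4-fold lower in KO with no overlap (adjusted p = 1.7e-10). Transaldolase, Taldo1, fell by 1.93 ± 0.09, and H6pd and Pgd of the pentose phosphate pathway were at -1.0 and -0.91. The riser was the mitochondrial isocitrate dehydrogenase Idh2 (1.68), but its other probe set fell by 0.56 (adjusted p = 0.00112 over all probe sets), so no direction is given for it. Of 12 ABC export pumps 5 fell and 1 rose. The glutathione conjugate pump Abcc1 averaged 10.01 ± 0.10 in KO_RA839 and 12.50 ± 0.20 in WT_RA839 (SD, n = 4 each), a difference of -2.49, and Abcc4 differed by -1.76 (adjusted p = 1.57e-09 and 3.34e-07).

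Several partners and regulators of Nrf2 were lower in KO. The small Maf genes, whose products pair with Nrf2, were lower, at -1.16 ± 0.17 for Maff, -1.10 ± 0.18 for Mafg and -0.78 ± 0.17 for Mafk (adjusted p up to 0.00238). Keap1 read 10.15, 10.19, 10.05 and 10.07 on the KO_RA839 arrays and 10.48, 10.64, 10.72 and 10.66 on the WT_RA839 arrays. The groups did not overlap, and the difference was -0.51 ± 0.10 (adjusted p = 0.00136). In DMSO the Keap1 gap was -0.18 (adjusted p = 0.199), but the test of a difference between these gaps, given below, did not call Keap1. A dimmer probe set of Keap1 was at -0.28 with RA839 and did not pass. Sqstm1, the autophagy receptor that binds Keap1, fell by 0.62 (adjusted p = 0.00525), and Nfe2l1, a related factor, rose by 0.71 (adjusted p = 0.00136). Of 18 genes in this list 6 fell, Nfe2l2 among them, and 1 rose.

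The core of the antioxidant response element was searched in promoter windows, since members of these lists moved together. RefSeq promoter windows on GRCm38.p6, 300 bases from 250 before to 50 after a gene's start, were searched on both strands for TGACNNNGC, which reads GCNNNGTCA on the other strand. Of 36 measured core targets, 29 had a window and 11 of these held the motif (37.9%). Of all 14368 tested genes with a window 16.1% held it, and 12.4% of all 32851 windows of that length in RefSeq held it. Among all genes called lower in KO the share was 17.2%, and among all called higher it was 15.1%, both near that of all tested genes. The share was 22.2% (94 of 424) among genes at least 2-fold lower in KO and 27.2% (25 of 92) among those at least 4-fold lower. A gene was counted if any of its windows held the motif, and the number of windows per gene was not balanced between these sets. Among genes at least 2-fold higher it was 13.6%, and of those at least 4-fold higher 4 of the 20 genes with a window held the motif. A match is a description of these letters and no site of binding. The stretches of 59 bases below surround the motif in 5 genes with wide gaps and are shown because they let the variable middle bases be compared, and they read 5′ to 3′ on the gene's strand with the motif in capitals.
Gsta3: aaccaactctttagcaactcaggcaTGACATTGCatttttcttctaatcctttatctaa
Ddit4l: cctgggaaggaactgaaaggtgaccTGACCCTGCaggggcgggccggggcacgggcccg
Gclm: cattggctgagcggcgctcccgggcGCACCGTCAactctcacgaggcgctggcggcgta
Slc6a9: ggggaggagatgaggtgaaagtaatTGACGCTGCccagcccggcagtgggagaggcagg
Pir: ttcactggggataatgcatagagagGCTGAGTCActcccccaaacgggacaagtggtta
The Gsta3 stretch lies at chr1:21240439-21240497, with the motif beginning 121 bases before the start. Those of the other genes are at chr3:137623601-137623659 for Ddit4l, chr3:122245398-122245456 for Gclm, chr4:117849279-117849337 for Slc6a9 and chrX:164269192-164269250 for Pir. All 5 genes lie on the plus strand, and the motif runs along the gene in Gsta3, Ddit4l and Slc6a9 and against it in Gclm and Pir. Their gaps were -5.08 for Gsta3, -3.98 for Ddit4l, -3.40 for Gclm, -2.73 for Slc6a9 and -2.60 for Pir, an iron-binding nuclear protein. A second RefSeq window of Slc6a9, from another start, also held the motif. Slc6a9 is a glycine transporter and Ddit4l resembles Ddit4, which restrains mTOR.

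Outside redox metabolism, the widest falls included signalling and transport genes. Ednrb, an endothelin receptor, read 3.85, 3.74, 3.76 and 3.46 in KO_RA839 and 11.71, 11.30, 11.72 and 11.35 in WT_RA839. It was near the floor on all KO arrays, so its gap of -7.81 ± 0.28 (adjusted p = 3.47e-11) is a lower estimate, and its other probe sets, both dim, were at -1.30 and -1.07. The monocarboxylate transporter gene Slc16a9 read 7.65, 6.96, 7.23 and 7.32 in KO_RA839 and 12.15, 11.54, 12.19 and 12.17 in WT_RA839. Its KO values remained well above the floor, and it was 26.3-fold lower (adjusted p = 2.23e-11). Rbp4, a retinol carrier, fell by 5.08 ± 0.30, the cell cycle inhibitor Cdkn1c fell by 4.65 ± 0.38, and the interleukin 36 family member Il1f9 fell by 4.55 ± 0.39. The adhesion genes Mpzl2 and Layn were lower, at -5.20 and -4.48, the actin-associated Pdlim4 fell by 4.41, and the peptide hormone gene Cck fell by 4.35, with adjusted p up to 8.53e-07. Ceacam10, of a family of adhesion molecules, was at -4.53 (adjusted p = 2.01e-05), and at -5.52 and -3.53 without KO arrays 1 and 2 and without KO arrays 3 and 4. Trim9, a ubiquitin ligase, was at -5.26 and -4.57 on probe sets whose suffixes (_x_at and _s_at) mark that they can match more than 1 transcript, whereas its other probe sets were at -0.03 and 0.04. Those others averaged 2.69 and 2.39 in KO_RA839 and 2.72 and 2.35 in WT_RA839, near the floor in both, so they could show no fall. Pcx, pyruvate carboxylase, fell by 1.87.

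Among the genes higher in KO, some were high on all 4 arrays and others on arrays 1 and 2. Tnfrsf9, the costimulatory receptor 4-1BB, read 9.50, 10.13, 9.81 and 9.93 in KO_RA839 and 7.09, 6.94, 7.13 and 7.0 in WT_RA839. Fst, the activin antagonist follistatin, read 8.12, 8.33, 8.02 and 7.84 in KO_RA839 and 5.05, 5.43, 4.81 and 5.31 in WT_RA839. In both the 4 arrays of a group lay close together, and the gaps were 2.80 ± 0.18 (adjusted p = 2.02e-08) and 2.93 ± 0.18 (adjusted p = 1.57e-08). Inhba, a subunit of activin, read 10.91, 11.10, 12.20 and 12.06 in KO_RA839 and 8.45, 8.65, 8.67 and 8.94 in WT_RA839, with KO arrays 3 and 4 above KO arrays 1 and 2 (2.89 ± 0.39, adjusted p = 6.04e-05). A much dimmer probe set of Inhba (4.75 in KO_RA839, 4.66 in WT_RA839) was at 0.10 and did not pass. The inducible chaperone gene Hspa1b read 11.45, 11.52, 11.85 and 11.44 in KO_RA839 and 8.80, 9.31, 8.41 and 9.23 in WT_RA839. Hspa1b showed no such division and was higher on all KO arrays (2.63 ± 0.31, adjusted p = 1.89e-05). Hspa1b has a near-identical neighbour gene whose signal a probe set may share. The carbonic anhydrase Car4 (3.45), Slfn4 (3.20), Ly6i (2.89) and the oxygen sensor Egln3 (2.64) rose with adjusted p up to 8.74e-05.

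The division of the KO arrays was wide for Arg1, Il1b, Il33, Lox and Slfn1. Arg1, arginase 1, read 9.35, 9.76, 7.64 and 7.63 in KO_RA839 and 4.65, 4.45, 6.89 and 4.31 in WT_RA839. WT array 3 lay above the other WT arrays and below all KO arrays, and the gap was 3.52 ± 0.77 (adjusted p = 0.0029), or 4.12 without that array. Without KO arrays 1 and 2 it was 2.55 (adjusted p = 0.0459) and without KO arrays 3 and 4 it was 4.48. Interleukin 1 beta, Il1b, read 9.50, 9.96, 6.44 and 7.44 in KO_RA839 and 5.69, 5.78, 6.43 and 5.47 in WT_RA839. KO array 3 was only just above the highest WT array, and the gap of 2.49 ± 0.64 (adjusted p = 0.00856) became 3.12 without it, 1.10 without KO arrays 1 and 2 (adjusted p = 0.0226) and 3.89 without KO arrays 3 and 4. Il33, an alarmin, read 8.24, 8.75, 6.32 and 6.49 in KO_RA839 and 4.98, 3.89, 5.20 and 5.67 in WT_RA839. All KO arrays were higher (2.51 ± 0.59, adjusted p = 0.00473), by 1.47 without KO arrays 1 and 2 and by 3.56 without KO arrays 3 and 4. Lox, which crosslinks collagen, differed by 3.13 ± 0.60 (adjusted p = 0.0011), and by 2.40 and 3.87 with these pairs left out in the same order.

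Slfn1 and Apoe depended on few arrays. Slfn1, a schlafen gene, read 9.25, 9.77, 6.32 and 6.41 in KO_RA839 and 5.04, 4.48, 6.24 and 6.17 in WT_RA839. KO arrays 3 and 4 lay next to WT arrays 3 and 4, and the call (2.46 ± 0.90, adjusted p = 0.0495) was lost without KO arrays 1 and 2 of both treatments, at 0.89 (adjusted p = 0.278), while without KO arrays 3 and 4 the value was 4.03. It was also lost without KO_RA839 array 1 or 2 (2.02 and 1.85, adjusted p = 0.136 and 0.150) and without any 1 of the 4 WT_RA839 arrays (adjusted p = 0.0555 to 0.124). Apoe, apolipoprotein E, read 13.88, 13.74, 14.0 and 13.74 in KO_RA839 and 10.85, 8.41, 12.26 and 12.32 in WT_RA839. Here the 4 KO arrays were even and WT array 2 was far below the other WT arrays (2.88 ± 0.74, adjusted p = 0.00877). Without WT_RA839 array 2 the gap was 2.03 (adjusted p = 0.0188), and with either pair of KO arrays left out it did not pass (2.91 and 2.85, adjusted p = 0.0673 and 0.0721).

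**Figure D3:**
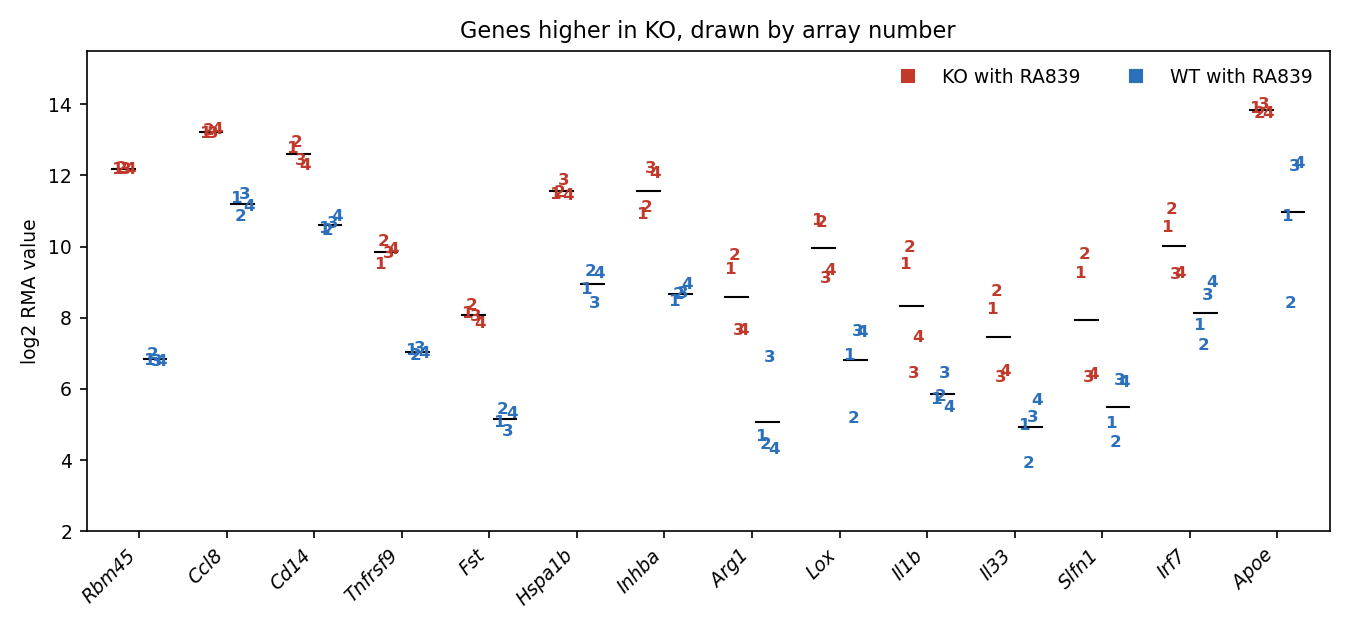
Log2 RMA values (y axis) of 14 genes higher in KO (x axis), drawn as array numbers 1 to 4 for KO with RA839 (red, left) and WT with RA839 (blue, right), with a black line at the group mean. The KO numbers coincide for Rbm45 and Ccl8, numbers 1 and 2 lie above 3 and 4 for Arg1, Lox, Il1b, Il33, Slfn1 and Irf7, and the order is turned round for Inhba. WT number 2 is the lowest of its group for Apoe, Lox, Irf7, Il33, Slfn1, Ccl8, Cd14 and Tnfrsf9. It is the highest for Rbm45, Fst and Hspa1b.

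Several CC chemokines, which draw monocytes and lymphocytes, were higher in KO, and the rest did not pass. Of 14 measured 6 rose and 0 fell, with a median of 0.91, against 14.6% higher and a median of -0.01 over all genes. The median was 0.60 without WT_RA839 array 2 and 0.56 without KO arrays 1 and 2 of both treatments, with 6 rises in each case. Ccl8 read 13.18, 13.27, 13.18 and 13.28 in KO_RA839 and 11.34, 10.85, 11.46 and 11.12 in WT_RA839. The 4 KO values nearly coincided, and the gap was 2.03 ± 0.12 (adjusted p = 1.66e-08). Ccl7, Ccl12 and Ccl2 rose by 1.75, 1.40 and 1.08 (adjusted p = 0.00316, 0.000513 and 0.00753), and Ccl3 and Ccl4 by 0.91 and 0.92. Ccl2 did not pass without KO arrays 3 and 4 (0.95, adjusted p = 0.0847). These genes lie near each other and are alike in sequence, so probe sets may share signal. Of 13 CXC chemokines 1 rose and 4 fell. Cxcl3, which draws neutrophils, read 5.51, 6.57, 4.27 and 4.47 in KO_RA839 and 9.20, 8.67, 10.03 and 10.31 in WT_RA839 and was thus lower on every KO array (-4.35 ± 0.47, adjusted p = 8.58e-06), at -5.18 without KO arrays 1 and 2 and -3.51 without KO arrays 3 and 4. The list of inflammatory cytokines and mediators, Il1b included, held 2 rises and 4 falls among 25 measured genes, and the prostaglandin E synthase Ptges fell by 1.03 ± 0.12 (adjusted p = 1.23e-05).

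Surface sensors changed in both directions, as did the genes at large, of which 14.6% were higher in KO and 15.8% lower. Cd14, which hands lipopolysaccharide to Tlr4, read 12.76, 12.92, 12.41 and 12.28 in KO_RA839 and 10.52, 10.44, 10.66 and 10.84 in WT_RA839. All KO arrays were higher (1.98 ± 0.14, adjusted p = 6.49e-08). Tlr4 (0.56, adjusted p = 0.00346) and Myd88 (0.38, adjusted p = 0.00446) rose as well, while the nucleic acid sensor Tlr13 fell by 0.92 and Tlr6 fell by 0.73 (adjusted p = 8.39e-06 and 3.43e-05). In all 5 of 19 toll-like receptors and adaptors rose and 4 fell. Among 27 scavenger and surface receptors 2 rose and 7 fell. The high-affinity Fc receptor Fcgr1 read 12.17, 12.34, 11.32 and 11.0 in KO_RA839 and 9.14, 8.84, 10.35 and 9.59 in WT_RA839. Treml4, a receptor of the family of triggering receptors on myeloid cells, read 5.51, 5.89, 5.0 and 4.91 in KO_RA839 and 9.30, 8.29, 9.50 and 9.58 in WT_RA839. The groups did not overlap for either, and they differed in opposite directions (2.23 ± 0.40 for Fcgr1, -3.84 ± 0.31 for Treml4). Cd36, a receptor for oxidized lipid, fell by 0.98 and the fungal lectin Clec4n fell by 1.22 (adjusted p = 1.65e-06 and 2.6e-05). Of 15 genes of MHC class II and costimulation 1 rose and 1 fell, and of 23 genes of arginine metabolism and macrophage polarization 5 rose and 4 fell. The costimulator Cd86 rose by 1.39 ± 0.19 (adjusted p = 6.07e-05), as did the lectin Mgl2 (1.29) and the arginine transporter Slc7a2 (1.23), with adjusted p up to 6.75e-05.

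Interferon-stimulated genes depended on which KO arrays were counted. Of 23 measured 5 rose and 2 fell, with a median of 0.76. Over all genes 14.6% were higher in KO and 15.8% lower. Without KO arrays 1 and 2 of both treatments 0 rose and 3 fell (median -0.01), and without KO arrays 3 and 4 the counts were 14 and 2 (median 1.20). Without WT_RA839 array 2 they were 2 and 2 (median 0.40). Irf7, an interferon regulatory factor, read 10.54, 11.03, 9.21 and 9.25 in KO_RA839 and 7.77, 7.21, 8.62 and 8.98 in WT_RA839. The antiviral gene Mx1 read 11.09, 11.29, 10.24 and 10.28 in KO_RA839 and 8.78, 7.89, 9.94 and 10.04 in WT_RA839. Both had their highest values on KO arrays 1 and 2 and their lowest on WT array 2 (1.87 ± 0.53 and 1.56 ± 0.49). Irf7 lost its call without KO_RA839 array 2 (1.53, adjusted p = 0.0521) or WT_RA839 array 2 (1.55, adjusted p = 0.0514), and its value was 1.09 (adjusted p = 0.155) without KO arrays 1 and 2 of both treatments and 2.64 without KO arrays 3 and 4. Mx1 lost its call without KO_RA839 array 1 or 2 or WT_RA839 array 1 or 2 (1.14 to 1.44, adjusted p up to 0.0795), and without KO arrays 1 and 2 of both treatments (1.10, adjusted p = 0.179). The guanylate-binding protein gene Gbp3 went the other way (-0.89 ± 0.23, adjusted p = 0.00842). Other lists turned with the KO pair: cell cycle genes counted 1 rise and 8 falls without arrays 1 and 2, against 6 rises and 0 falls without arrays 3 and 4 (1 and 0 with all arrays), and genes of the ATF4 stress response 6 and 3, against 0 and 8 (1 and 5 with all arrays).

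Among lysosomal genes and genes of lipid synthesis some fell and most did not pass. Of 34 genes of autophagy and the lysosome 15 fell and 1 rose (median -0.21). Lipa, the lysosomal acid lipase, averaged 13.48 ± 0.05 in KO_RA839 and 14.45 ± 0.04 in WT_RA839 (SD, n = 4 each). The scatter of both groups was small beside their difference of -0.96 ± 0.06 (adjusted p = 3.92e-08). Wipi1 and Map1lc3a, of autophagosome formation, were lower, at -0.60 and -0.58 (adjusted p = 0.000219 and 0.00148). Of 26 genes of cholesterol and fatty acid synthesis 10 fell and 0 rose (median -0.25), and without KO arrays 1 and 2 the falls numbered 5. The fatty acid synthase Fasn read 7.90, 8.0, 7.95 and 7.87 in KO_RA839 and 8.97, 9.62, 8.95 and 9.32 in WT_RA839, with all KO arrays lower (-1.29 ± 0.16, adjusted p = 2.78e-05). On 1 probe set each the desaturases Fads2 and Fads1 were lower, at -1.64 and -0.75 (adjusted p = 2.35e-06 and 1.91e-05), but the other probe sets of Fads2 were both at -0.10 and that of Fads1 at -0.01, none past the threshold. The lipid-sensing receptors Ppard and Pparg were lower, at -1.29 and -0.71 (adjusted p = 6.93e-05 and 0.00255), with a dimmer probe set of Ppard at 0.14. In 23 genes of PPAR signalling and fatty acid oxidation 5 rose and 4 fell. LXR targets, which export cholesterol, counted 3 rises and 2 falls among 15, and amino acid transporters 1 rise and 5 falls among 25. Over all genes 14.6% were higher in KO and 15.8% lower. The counts of the PPAR, LXR and transporter lists are therefore not read as results about those lists.

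**Figure D4:**
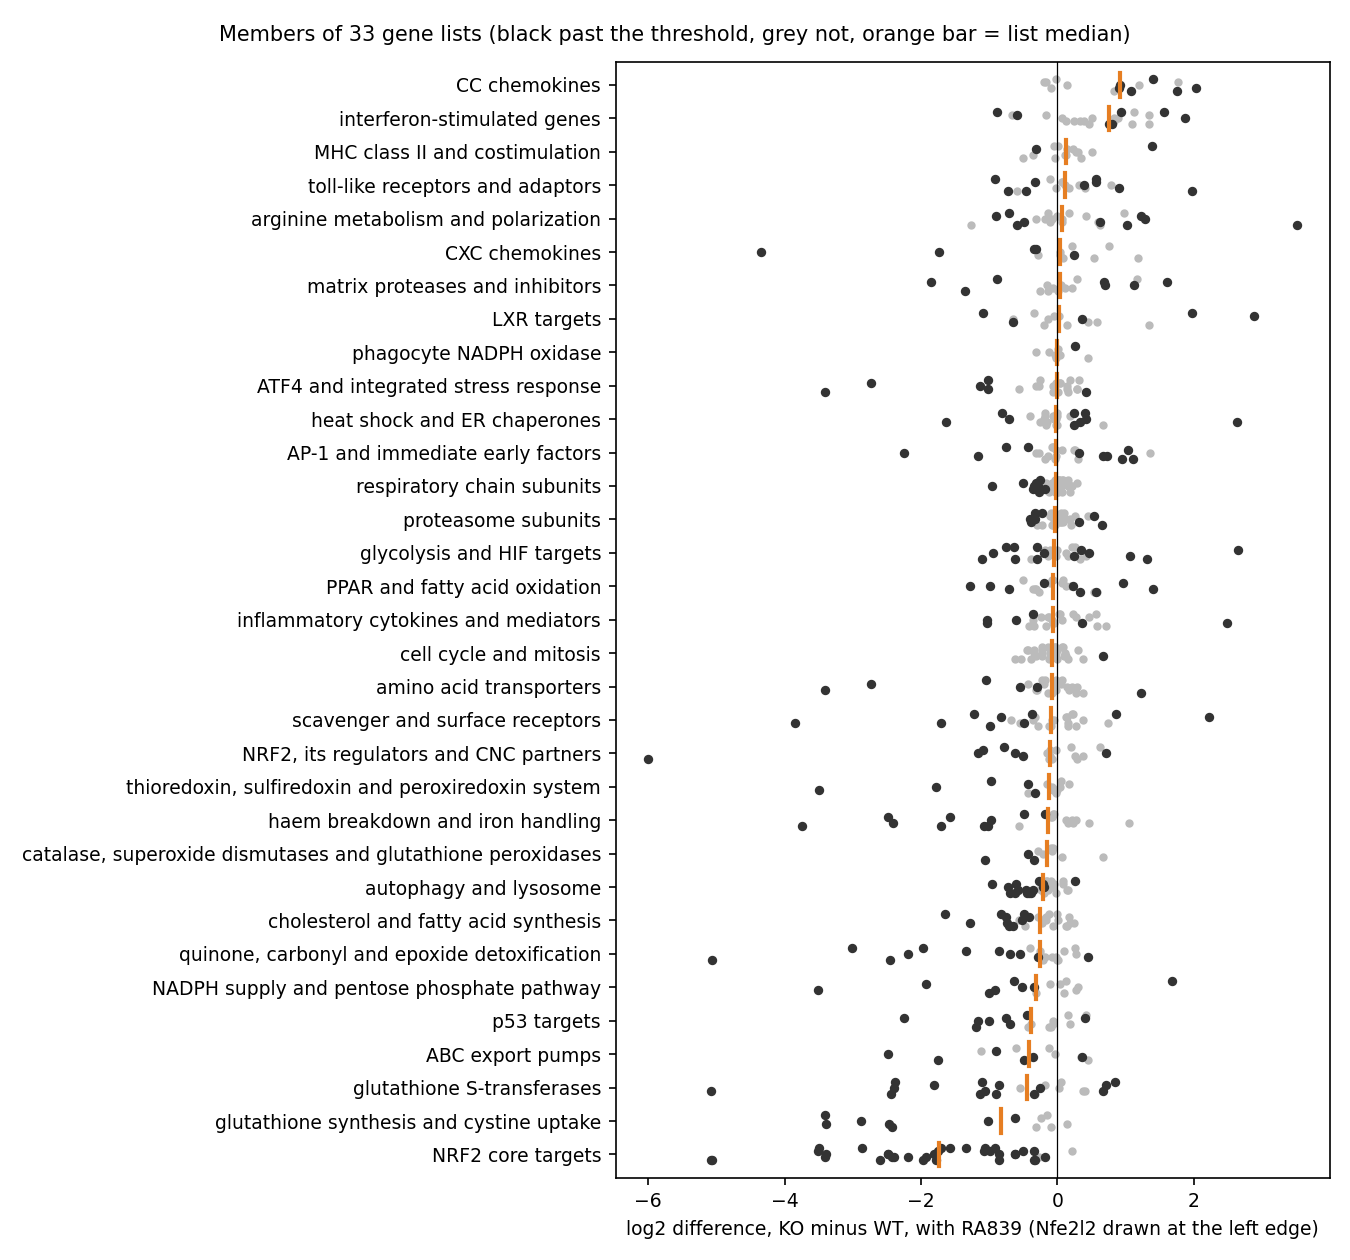
Log2 differences between KO and WT with RA839 (x axis, KO minus WT) of the members of 33 gene lists (rows, ordered by median), with black points past the threshold, grey points not past it and an orange bar at the list's median. The core Nrf2 targets and glutathione synthesis lie at the bottom with medians of -1.73 and -0.82, CC chemokines and interferon-stimulated genes at the top with 0.91 and 0.76, and most other medians lie near zero.

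In lists of energy, stress and growth genes most members did not pass. Over all genes 14.6% were higher in KO and 15.8% lower, and the counts below are set beside these shares. Respiratory chain subunits counted 10 falls and 0 rises among 40, with a median of -0.02, and Ndufa4 led with -0.96 ± 0.18. The falls numbered 5 with arrays centred on their medians, 3 without KO arrays 1 and 2 and 4 without KO arrays 3 and 4, in each case a share below that of lower calls among all genes in the same setting. Of 35 proteasome subunits 3 rose and 5 fell, both shares below those of all genes, and the immunoproteasome subunit Psmb9 (0.65) did not pass without KO arrays 1 and 2 (0.45, adjusted p = 0.0765). Of 17 p53 targets 7 fell and 1 rose. Perp, a desmosomal effector, and the death receptor Tnfrsf10b were lower, at -2.24 and -1.16 (adjusted p = 4.69e-05 and 0.000139), and another probe set of Tnfrsf10b was at -0.22 and did not pass. Among 24 AP-1 and immediate early factors 6 rose and 4 fell. Egr1 and Fos rose by 1.11 and 0.95, whereas Fosl1 read 3.88, 3.80, 3.88 and 3.82 in KO_RA839 and 5.64, 6.60, 6.04 and 6.12 in WT_RA839 and was lower on all KO arrays (-2.26 ± 0.22, adjusted p = 2.48e-06), but its dimmer probe set was at -0.11. Of 28 genes of glycolysis and hypoxia 6 rose and 8 fell, with the growth factor Vegfa at 1.32 and the collagen hydroxylase P4ha2 at -1.11 (adjusted p = 0.000219 and 0.000654). The matrix metalloproteinase Mmp19 fell by 1.85 ± 0.21 (adjusted p = 1.14e-05), in a list of 18 with 4 rises and 3 falls. Of 25 heat shock and endoplasmic reticulum chaperones 6 rose and 3 fell, and the small heat shock protein Hspb1 was among the falls (-1.64 ± 0.19, adjusted p = 1.27e-05), though its other probe set, of similar signal, was at -0.27 and did not pass. Of 8 phagocyte oxidase genes 1 passed, the GTPase Rac1 (0.26, adjusted p = 0.00605; 0.03 and 0.02 on its other probe sets), which lost its call with either pair of KO arrays left out (0.28 and 0.25, adjusted p = 0.0501 and 0.0715).

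The gene with the widest rise lies close to Nfe2l2. Rbm45, an RNA-binding protein gene, read 12.17, 12.20, 12.15 and 12.17 in KO_RA839 and 6.81, 6.96, 6.78 and 6.77 in WT_RA839. All 4 arrays of each group nearly coincided, and Rbm45 was 40.7-fold higher in KO (5.35 ± 0.06, adjusted p = 1.64e-17) on its only probe set. It stands at the 7th place to one side of Nfe2l2 among genes with a probe set on chromosome 2. Of the 20 nearest such genes, 10 on each side, 3 rose and 2 fell, and their median was -0.04. Over all genes 14.6% were higher in KO and 15.8% lower, so these counts do not mark the neighbours off from other genes. Cyct, the testis form of cytochrome c, stands next to Rbm45 in that order and read 6.55, 6.49, 7.11 and 7.43 in KO_RA839 and 5.69, 5.36, 5.64 and 5.79 in WT_RA839. Its KO arrays were all higher (1.28 ± 0.20, adjusted p = 0.000253), with arrays 1 and 2 below arrays 3 and 4. Ttc30b fell by 0.60 (adjusted p = 0.00974), and Agps (0.23, adjusted p = 0.0335) and Hoxd9 (-0.42, adjusted p = 0.044) were small, near the threshold and each lost their calls with any 1 of the RA839 arrays except number 2 of WT_RA839 left out (adjusted p up to 0.133). Prkra, at the 9th place, was at -0.11 (adjusted p = 0.494).

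Markers of the labelled cell type were strong in both genotypes. Csf1r averaged 14.33 in KO_RA839 and 14.49 in WT_RA839, Adgre1 12.78 and 12.95, and Cd68 14.19 and 14.05, in the same order. The signal summed over 10 macrophage markers on a linear scale ran from 90396.9 to 108171.5 in KO_RA839 and from 91023.8 to 102986.7 in WT_RA839, so the groups overlapped. Of these markers Cd14 and Fcgr1 rose and Itgam fell (-0.80, adjusted p = 0.000319). In such bulk samples fewer cells of a type and less RNA per cell cannot be told apart. The sum over 10 fibroblast and stroma markers ran from 335.4 to 469.8 in KO_RA839 and from 586.6 to 706.9 in WT_RA839 with no overlap. Of the 10 markers 5 fell and 0 rose. Acta2, smooth muscle actin, was at -1.77 (adjusted p = 0.000142), with its dimmer probe sets at 0.42 and -0.32. On its brightest probe set Acta2 averaged 6.71 in KO_RA839 and 8.48 in WT_RA839, and a linear sum gives most weight to bright members. A sum without Acta2 was not taken, so the gap of the sum is not read as a shift of all 10 markers. Col1a2, Col3a1, Dcn, Lum, Pdgfra and Thy1 lay below the array median on all 8 arrays. Sums of the neutrophil, dendritic cell, B cell, T and NK cell, mast cell, erythroid and platelet markers overlapped between the groups. Below the array median on all 8 arrays were 5 of 11 neutrophil, 3 of 9 dendritic cell, 3 of 8 B cell and 5 of 9 T and NK cell markers. So were 8 of 9 mast cell, 4 of 5 erythroid and 2 of 7 platelet markers. Of the T and NK cell markers 2 rose and 2 fell. The falls were Cd2 (-0.97) and Cd4 (-0.71), and each lost its call without KO_RA839 array 3 or 4. S100a8, a calprotectin subunit, fell by 0.85 (adjusted p = 9.07e-06). The part of other cells in the results was not tested.

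The same genotypes were also measured with DMSO alone. There 4561 genes (25.1%) passed, 2043 higher in KO and 2518 lower. These arrays are other arrays than those with RA839, but the fit shares the estimate of spread, and arrays of the same number within a genotype deviated together (correlations across genes of 0.66 to 0.70 in KO and 0.27 to 0.46 in WT). Of the 2883 genes lower in KO with RA839, 1909 (66.2%) were also lower with DMSO, which is 75.8% of the DMSO list. Of the 2655 higher genes 1603 (60.4%) were higher with DMSO, which is 78.5% of that list, and 1 gene passed in opposite directions. Nqo1 had a gap of -5.06 with RA839 and -4.83 with DMSO, Rbm45 5.35 and 5.43, and Ccl8 2.03 and 2.06. The core targets as a list stood at -1.73 with RA839 and -1.29 with DMSO (30 falls and 0 rises there), and CC chemokines at 0.91 and 0.30 (3 rises and 0 falls there). Taken gene by gene, the gap with RA839 minus that with DMSO had a median of -0.26 in the core targets, of which 1 passed the test of that difference, and 0.16 in the CC chemokines, of which 0 passed.

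A difference between the gaps was shown for 21 genes (0.115%), and in all of them KO lay farther below WT with RA839 than with DMSO. By the same test 679 genes had an unadjusted p under 0.05. Ddit4l read 4.98, 5.52, 4.90 and 4.90 in KO_RA839, 9.12, 8.67, 9.25 and 9.19 in WT_RA839, 5.46, 5.39, 4.59 and 4.64 in KO_DMSO and 6.77, 6.97, 6.93 and 6.63 in WT_DMSO. The KO arrays overlapped between the treatments and the WT arrays did not, and the gap with RA839 minus that with DMSO was -2.17 ± 0.29 (adjusted p = 0.00787). Gdap10 averaged 7.40 ± 0.08 in KO_RA839 and 8.93 ± 0.17 in WT_RA839 (SD, n = 4 each). It had a gap with RA839 (-1.53, adjusted p = 6.6e-07) and none past the threshold with DMSO (0.17, adjusted p = 0.37), and the difference was -1.70 ± 0.18 (adjusted p = 0.00183). The glutathione genes Gclc and Gss had gaps that differed by -1.21 ± 0.19 and -1.33 ± 0.23 (adjusted p = 0.0237 and 0.0331), and the matrix protein Comp, the membrane protein Cdcp1 and Slc16a9 had differences of -2.04, -1.82 and -1.32. Ednrb and Trim9 differed by -2.26 and -2.60, with the limits on their probe sets given above. Of the 21 genes 7 kept the call whichever of the 16 compound arrays was left out, among them Ddit4l, Gdap10 and Trim9. Gss, Slc16a9 and Ednrb lost it with any 1 of 13 of these arrays left out, Cdcp1 with any 1 of 12, Gclc of 8 and Comp of 2, at adjusted p up to 0.117. The count was 8 to 12 without any 1 of these: number 1, 3 or 4 of KO_RA839, number 3 or 4 of WT_RA839, number 1 or 4 of KO_DMSO, and number 1 or 3 of WT_DMSO. With replicate numbers blocked inside each genotype 66 genes passed, 61 of them in the same direction, and 16 of the 21 were among them. With the KO arrays 1 and 2, or 3 and 4, of both treatments left out 1 gene passed each time.

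**Figure D5:**
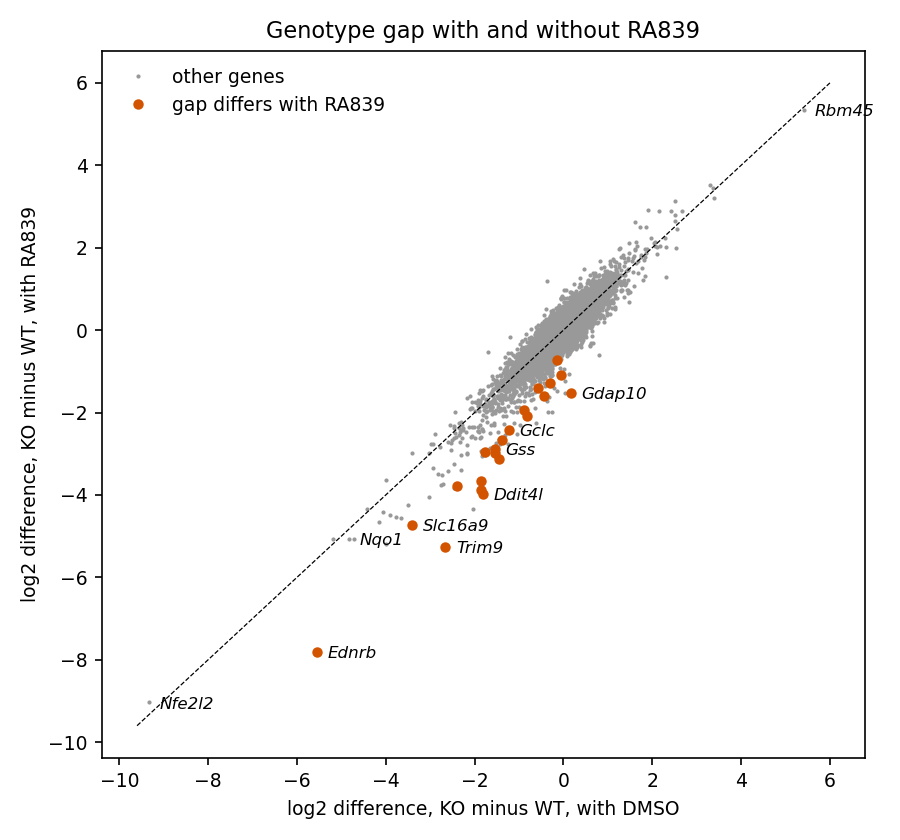
Log2 difference between KO and WT with RA839 (y axis) against the same with DMSO (x axis), with 1 point per gene, the line of equal gaps dashed and the 21 genes whose gaps differed in orange. The orange points all lie below the line, among them Ednrb at -7.81 and -5.56 and Gdap10 at -1.53 and 0.17, whereas Nfe2l2, Nqo1 and Rbm45 lie close to it.

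Knockdown of Keap1 in other WT cultures gave values from arrays that shared no sample with this comparison. siKeap1-1 raised 1578 genes (8.67%), of which 685 (43.4%) were lower in KO with RA839 and 87 (5.51%) higher, where 15.8% and 14.6% of all genes were. siKeap1-2, which shares the siControl arrays, raised 1149 genes (6.32%), of which 560 (48.7%) were lower in KO and 45 (3.92%) higher. Of the 2883 genes lower in KO, the 685 are 23.8% and the 560 are 19.4%. siKeap1-1 lowered 1163 genes (6.39%), of which 360 (31.0%) were higher in KO, and siKeap1-2 lowered 889 (4.89%), of which 255 (28.7%) were higher in KO. Gsta3, -5.08 in KO, was at 2.23 with siKeap1-1 and 2.26 with siKeap1-2 (adjusted p = 2.15e-07 and 2.25e-07). Treml4, -3.84 in KO, was at 4.08 and 3.07 with the same siRNAs, Il1f9 at 3.37 and 3.66, and Ephx2 at 2.82 and 3.29. Some wide falls in KO had no counterpart: Rbp4 was at -0.34 and -0.07 (adjusted p = 0.544 and 0.925) and Mpzl2 at 0.61 and 0.36 (adjusted p = 0.181 and 0.477). Srxn1 was at 0.04 (adjusted p = 0.768) and 0.55 (adjusted p = 0.000164). Among the genes higher in KO, Rbm45 was at -0.02 and 0.05 and Ccl8 at -0.08 and -0.12, none past the threshold, whereas Ccl2 was lower, at -1.49 and -2.21 (adjusted p = 0.000756 and 5.85e-05) and Il1b was at -1.07 and -1.14 (adjusted p = 0.0141 and 0.0132).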

How the data were processed

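The authors deposited log2 values of RMA (robust multi-array average), named without a version in the submitters' processing notes, for 45101 probe sets of single-colour Affymetrix arrays; no source used here gives the settings of background correction and summarisation. Such values compress low signals, and no read depth exists, so the 4 arrays a group limit the precision. From them, 34945 probe sets with 1 named gene were kept, and a gene was read from whichever of its probe sets was brightest on average over the 28 arrays, which left 18193 genes. Differences were tested with limma 3.58.1 (R 4.3.3; lmFit and eBayes) over the 16 compound arrays, with 1 coefficient per group and Benjamini-Hochberg adjustment. The difference between the gaps with RA839 and with DMSO was the interaction contrast of that fit, and the 12 siRNA arrays were fitted apart. Data of 18193 genes for KO against WT with RA839 were also simulated. Of 50 genes each, 48% were recovered at a 1.5-fold change, 90% at 2-fold, 98% at 3-fold and 96% at 4-fold, beside 9 false calls. In the simulation each gene varied on its own, without the spread that genes share on the real arrays. There the leading component took 73.7% of the variance within KO_RA839 and 66.9% within WT_RA839. The recovery and the false calls therefore give no error rate for the deposited arrays.

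Genes were named by rule: 9 known Nrf2 pathway genes, the 15 widest non-overlapping rises and falls, up to 4 called members of each list, the 6 widest differences between gaps, and 10 neighbours of Nfe2l2 on each side. A few others were named after their values were seen, namely Pcx, Blvra, Epha2, Slc3a2 and the smaller members of lists. The comparison, the members and the lists were chosen with earlier results of these data known. Array numbers did not pair the genotypes (correlations of deviations between KO_RA839 and WT_RA839 of the same number were -0.18 to -0.02), while within a genotype the same number deviated together in both treatments (0.66 to 0.70 in KO, 0.27 to 0.46 in WT). Alternatives concerned the arrays in the fit, the probe set per gene, the scaling, dim genes, array weights, the threshold, the replicate block and each array left out. Leaving out pairs of KO arrays, or the WT arrays numbered 2, was added after seeing the data.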

Additional observations from a re-analysis of the deposited data

Results flagged for a closer look

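By Dixon's ratio of gap to range, a single array stood far from the other 3 of its group in 22 of 360 groups of 4 arrays tested over the named genes, and chance gives about 1 in 20. WT_RA839 array 2 was the stray array in 10 of them. It was low for Gsta3 at 9.32 (others 11.20 to 11.44), Slc16a9 at 11.54 (others 12.15 to 12.19), Blvrb at 12.42, Rac1 at 12.55, Psmb5 at 12.64, Bag3 at 10.43, Itgam at 9.74 and Kit at 3.29. It was high for Mafk at 11.42 (others 10.94 to 11.02) and for Cox6c, a subunit of cytochrome c oxidase, at 13.68 (others 13.15 to 13.23). On the same array the 3′ signal of the Gapdh control exceeded the 5′ signal by 3.739, against 0.876 to 1.001 on the other WT_RA839 arrays, and the part of this in the values was not tested.

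KO_RA839 array 2 was high for Mpzl2 at 4.61 (others 2.73 to 2.88) and Ddit4l at 5.52, and low for Ndufb9, of respiratory complex I, at 12.24. KO_RA839 array 1 was high for Me1 at 5.48 and the B cell marker Cd79a at 6.31 and low for Gsta4 at 4.18, and KO_RA839 array 4 was low for Gpx2 at 5.21. WT_RA839 array 1 was high for Pdlim4 at 11.89 and for Osbpl6 at 4.06. WT_RA839 array 3 was high for Arg1 at 6.89 (others 4.31 to 4.65) and low for the granzyme gene Gzma at 3.02, and WT_RA839 array 4 was low for the pump gene Abcb1a at 7.88.

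Among the named genes 9 had a genotype gap that differed between RA839 and DMSO by limma's interaction test (adjusted p under 0.05). KO lay farther below WT with RA839 for Trim9 by -2.60, Ednrb by -2.26, Ddit4l by -2.17, Comp by -2.04, Cdcp1 by -1.82, Gdap10 by -1.70, Gss by -1.33, Slc16a9 by -1.32 and Gclc by -1.21 on the log2 scale.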

How the results depend on the processing

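KO against WT with RA839 kept a count within 1.5 times of 5538 genes under every alternative except a limit to brighter genes (3533 genes, 56.7% of them higher in KO, a limit that leaves fewer genes to test), an adjusted p under 0.01 (3117) and a requirement of 2-fold (770). The split moved to 53.2% higher with quantile normalization and 53.6% with arrays centred on their medians, against 47.9% as deposited. With only the 8 compared arrays in the fit the count was 4327, and with 1 array left out it ran from 4518 to 5631. KO against WT in DMSO, 4561 genes, stood at 2759 with brighter genes, 2459 at the stricter p, 590 at 2-fold, 3012 without KO arrays 3 and 4, and 3577 to 5670 with 1 array left out. The difference between the gaps, 21 genes, was the least settled. It counted 45 genes with all 28 arrays in the fit, 12 with brighter genes, 13 without probe sets ending in _x_at, _s_at or _a_at, 43 with array weights, 5 at the stricter p, 1 without KO arrays 1 and 2, 1 without KO arrays 3 and 4, and 8 to 26 with 1 array left out; apart from the fewer genes or arrays used in some of these, the cause was not tested. With the replicate block within genotype, where the numbers pair the arrays, the counts were 5484 with RA839, 4503 in DMSO and 66 for the difference between the gaps, and the block ended the call of Hoxd9 (adjusted p = 0.0569). With the block across genotypes, which share only a number, they were 5827, 4879 and 20. Of 165 named genes past the threshold 113 kept direction and call under every alternative, 52 lost the call under at least 1 and 0 reversed. Signals near the floor of the scale limit the size of the widest falls.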
